A study of Mus musculus with 7 samples.

Results

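Natriuretic peptide signalling in the left ventricle was followed through 8 genes, which were chosen by name: the peptide genes *Nppa*, *Nppb* and *Nppc*, the convertase genes *Corin* and *Furin*, and the receptor genes *Npr1*, *Npr2* and *Npr3*. All 8 were found by Ensembl identifier among the 20927 genes of the count table, and 7 of them were among the 13894 genes with enough counts to be tested. *Nppc* was the exception.

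The samples were left ventricles of 3 wild-type (WT) mice, replicates 1, 3 and 4, and of 4 mice homozygous for the missense variant A178D of titin, the giant protein of the sarcomere, replicates 1 to 4, with 1 library of stranded poly(A) RNA per heart. The comparison asks how the missense change alters the ventricular transcriptome. Library totals ran from 41102868 to 54245530 counts in WT (median 51797208) and from 33080675 to 52345529 in A178D (median 41398874). The strain label of both genotypes was C57BL/6J. The variant was made by genome editing in C57BL/6N embryonic stem cells, together with a silent change, and the line was backcrossed to C57BL/6J. Homozygous A178D mice carry the variant in every cell that expresses titin and have no wild-type titin, so that cell-autonomous and systemic responses cannot be told apart in these hearts. Age and sex of the mice were not given for these libraries.

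Cardiac myocytes make atrial and brain natriuretic peptide (from *Nppa* and *Nppb*) as precursors, which the membrane protease corin and the proprotein convertase furin cut. The circulating peptides act through the guanylyl cyclase receptor encoded by *Npr1*, which raises cyclic GMP, whereas C-type natriuretic peptide (from *Nppc*) acts through the cyclase encoded by *Npr2*. The receptor encoded by *Npr3* clears all of these peptides, and ventricular *Nppa* and *Nppb* are widely used markers of load on the myocardium.

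The tissue label was checked against marker genes. *Myh6*, the adult alpha-myosin heavy chain, was the most abundant of 9 ventricular myocyte markers. Summed over these markers, the level was 101228, 105891 and 103860 CPM (counts per library total of 1e6, scaled between libraries by TMM) in WT replicates 1, 3 and 4. The sums in A178D replicates 1 to 4 were 99945, 101282, 99881 and 107950 CPM. Of these markers, 1 was called by the test described below, *Mybpc3* (myosin-binding protein C), with a log2 fold change of 0.30, and the median over the 9 was -0.014, between -0.088 and 0.035 without single hearts. The adjusted p of *Mybpc3* in the edgeR quasi-likelihood test was 0.0230, and 0.0510 to 0.1197 without WT replicate 3, WT replicate 4, A178D replicate 1 or A178D replicate 3, where the call was lost. With the replicate number as a block it was lost too (0.0574, the highest over the 9 alternatives with all hearts). Per kilobase of exon *Actc1* (cardiac alpha-actin) and *Myl2* (the ventricular light chain) were the highest of the list, at 8554 and 6562 CPM per kb in WT hearts. *Actc1* was higher in all A178D hearts (9347 CPM per kb, log2 fold change 0.13, adjusted p 0.293 in the same test, in a range from 0.269 to 0.812 over those alternatives). With offsets for length and GC content its log2 fold change was 0.027. *Myh6* was lower in all A178D hearts (log2 fold change -0.11, adjusted p 0.378 in the same test). Of the 9 estimates 4 lay above 0 and 5 below. *Myl2* (0.020) overlapped and fell below 0 without WT replicate 1 (-0.017) or A178D replicate 4 (-0.022) and with the offsets (-0.063). DESeq2 and limma-voom also called 1 of the 9, and 3 had an unadjusted p under 0.05. The atrial transcripts *Bmp10*, *Sln* and *Myl7* were at or near 0, with no count of *Bmp10* in any heart, at most 0.0991 CPM of *Sln* and at most 0.152 CPM of *Myl7*. Other listed atrial markers were present in all hearts, with *Kcnj3* at 25.8 to 51.9 CPM, *Stard10* at 23.2 to 29.03 CPM and *Myl4* at 1.85 to 4.02 CPM. The count of *Ttn* does not show the missense change and so does not check the genotype labels. Its level was 7245, 6247 and 6486 CPM in WT and 5360.5, 6173, 6489.5 and 4087 CPM in A178D hearts, with a log2 fold change of -0.27. The edgeR quasi-likelihood test gave a Benjamini-Hochberg adjusted p of 0.287, in a range from 0.119 to 0.843 over those alternatives. The exons of *Ttn* come to 116825 bases. Genes of 8 kb or more had a median deviation in log2 CPM of 0.081 in WT replicate 1 and -0.17 in A178D replicate 4. The part of this trend in the level of *Ttn* was not tested.

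Per kilobase of annotated exon, the 8 genes spanned a wide range in WT hearts. *Nppa* stood at 210.2 ± 80.8 CPM per kb (SD, n = 3) and *Nppb* at 145 ± 73.8, and these ranges overlapped, with 126 to 288 for *Nppa* and 84.6 to 227 for *Nppb*. *Corin* followed at 65.4 ± 7.76 CPM per kb, under the lowest *Nppb* heart. *Npr2* at 19.3 ± 0.205, *Furin* at 12.2 ± 0.84, *Npr1* at 7.76 ± 0.214 and *Npr3* at 2.12 ± 0.0762 CPM per kb came next, each apart from its neighbours in all 3 hearts. *Nppc* was the lowest at 0.0514 ± 0.0173 CPM per kb. In A178D hearts the order of the means was the same, with 521 ± 148 CPM per kb (SD, n = 4) for *Nppa* and 252 ± 95.1 for *Nppb*, whose ranges overlapped by little (372 to 680 and 176 to 377). Exon lengths take all annotated transcripts together, so that a gene with long alternative exons, such as *Furin* or *Npr3*, may be placed too low.

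All 13894 genes went into 1 fit, and a gene was called where the edgeR quasi-likelihood test, adjusted by the Benjamini-Hochberg method, gave a p under 0.05. Across the transcriptome 327 genes, or 2.35%, were called, 145 (1.04%) of them higher and 182 (1.31%) lower with the variant. Of the 7 tested members, 2 were called: *Nppa* was higher and *Corin* lower. In *Nppa*, *Corin* and *Npr2* the WT and A178D hearts did not overlap, which was so for 16.1% of all tested genes. An unadjusted p under 0.05 was found for 2326 genes, or 16.7%, which is the background for the counts of such p in the gene lists below. All log2 fold changes are A178D over WT.

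**Figure D1:**
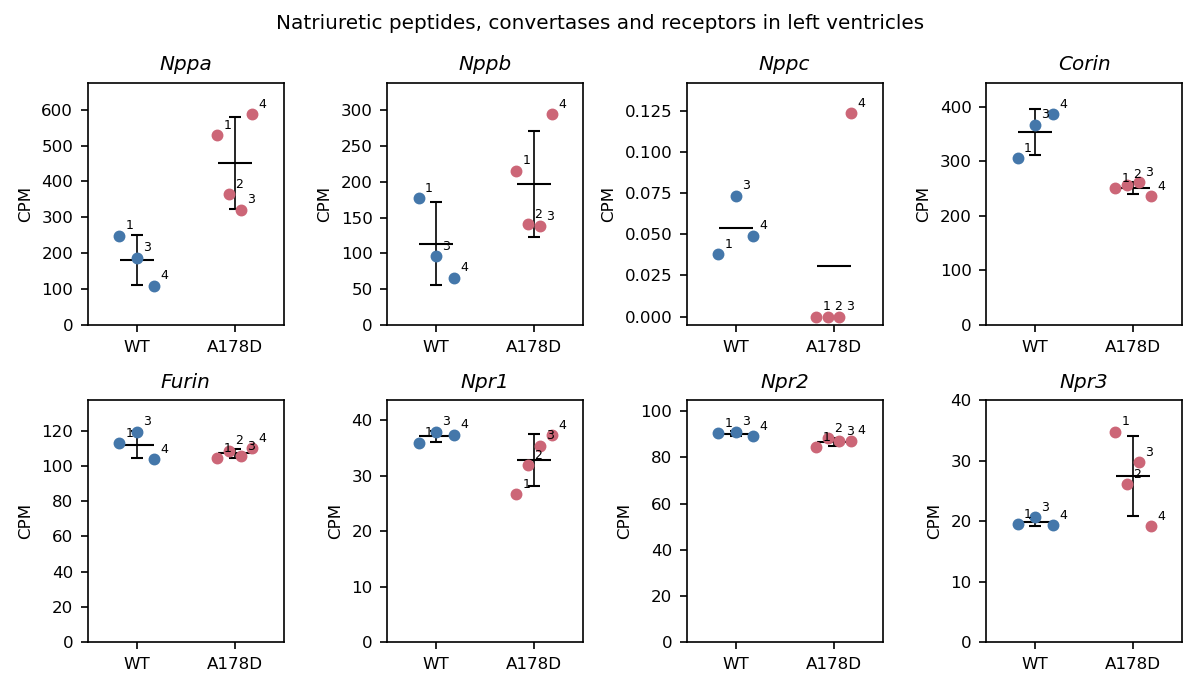
Level of each of the 8 genes in CPM (vertical axis) in left ventricles of 3 WT (blue) and 4 A178D mice (red). Each point is 1 heart with its replicate number, and black lines are the mean and SD of the genotype (the mean alone for *Nppc*). *Nppa* lies higher and *Corin* lower in all A178D hearts, while *Nppb*, *Furin*, *Npr1* and *Npr3* overlap.

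*Nppa* (ENSMUSG00000041616; GRCm38 chromosome 4, 148000722 to 148002079, plus strand) encodes the precursor of atrial natriuretic peptide. Its level was 249, 188 and 109 CPM in WT replicates 1, 3 and 4, and 529, 364, 322 and 588 CPM in A178D replicates 1 to 4. Every A178D heart stood above every WT heart, and the hearts of each genotype were spread widely. The log2 fold change was 1.31 (standard error 0.24, 95% interval from 0.79 to 1.83), with an adjusted p of 0.0146 in the edgeR quasi-likelihood test (Benjamini-Hochberg). Without WT replicate 3, WT replicate 4 or A178D replicate 1 the call was lost, at adjusted p of 0.086, 0.0598 and 0.0555, in a range from 0.00233 to 0.086 over the 7 fits of edgeR's test that each left out 1 heart. The log2 fold change in these fits lay between 1.05 and 1.6045.

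*Nppb* (ENSMUSG00000029019; chromosome 4, 147985788 to 147987205, plus strand) encodes the precursor of brain natriuretic peptide and lies 13516 bases from *Nppa* on the same strand. Its level was 177.6, 96.6 and 66.1 CPM in WT replicates 1, 3 and 4, and 216, 141, 138 and 295 CPM in A178D replicates 1 to 4. The genotypes overlapped, because WT replicate 1 stood above A178D replicates 2 and 3. In log2 terms the difference was 0.80 (standard error 0.30, 95% interval from 0.16 to 1.43, not adjusted for the number of genes), and the adjusted p was 0.194 in the edgeR quasi-likelihood test (Benjamini-Hochberg), so that *Nppb* was not called. Without WT replicate 1 the log2 fold change was 1.28 and the adjusted p 0.0149, the lowest of the 7 edgeR fits without 1 heart, which ranged up to 0.463. *Nppb* was also called with the replicate number as a block (log2 fold change 0.96, adjusted p 0.0373 in edgeR's test), in a range from 0.0373 to 0.399 over the alternatives that kept all hearts.

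The hearts of a genotype fell in the same order for both genes. Among WT hearts, replicate 1 was highest and replicate 4 lowest in *Nppa* as in *Nppb*. Among A178D hearts the order from the highest was replicate 4, 1, 2 and 3 for both. The ratio of *Nppa* to *Nppb*, each in CPM per kb, was 1.264, 1.75 and 1.49 in WT replicates 1, 3 and 4, and 2.21, 2.33, 2.11 and 1.80 in A178D replicates 1 to 4. The ratio was thus higher in all A178D hearts, although the lowest of them was close to the highest WT heart. It is given as a description, without a test.

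*Nppc* (ENSMUSG00000026241; chromosome 1, 86666291 to 86670571, minus strand) encodes the precursor of C-type natriuretic peptide, which endothelial cells are known to secrete. It had 2, 4 and 2 counts in WT replicates 1, 3 and 4, and 0, 0, 0 and 4 counts in A178D replicates 1 to 4. These are 0.0381, 0.0734 and 0.0492 CPM in WT hearts and 0.124 CPM in A178D replicate 4. In CPM the exact two-sided permutation test over the 7 hearts gave p = 0.657, where 0.0286 is the smallest p that 35 splits allow. In the A178D hearts at 0, a count of 0 allows up to 3 counts, or 0.0569 to 0.0744 CPM, for counting error only, and more where both ends of a fragment were counted. No difference was detectable at this depth.

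*Corin* (ENSMUSG00000005220; chromosome 5, 72300025 to 72504473, minus strand) encodes the transmembrane serine protease that activates the precursor of atrial natriuretic peptide on the myocyte surface. Its level was 306, 367 and 386 CPM in WT replicates 1, 3 and 4, and 251, 257, 261 and 236 CPM in A178D replicates 1 to 4. All A178D hearts stood below all WT hearts and close to each other, with an SD of 10.8 CPM against 41.9 CPM among WT hearts. The log2 fold change was -0.49 (standard error 0.081, 95% interval from -0.66 to -0.32), with an adjusted p of 0.00815 in the edgeR quasi-likelihood test (Benjamini-Hochberg). The call was lost without WT replicate 3 (adjusted p = 0.0654) and without WT replicate 4 (0.0547), and the adjusted p of edgeR's test ranged from 0.000703 to 0.0654 over the 7 fits without 1 heart. The log2 fold change stayed between -0.58 and -0.42 in these fits.

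Within each genotype the hearts ranked by *Corin* in the reverse of their order by *Nppa*. WT replicate 1, the highest WT heart in *Nppa*, was the lowest in *Corin*, and WT replicate 4 was the other way round. Among A178D hearts, replicate 4 was highest in *Nppa* and lowest in *Corin*, and replicate 3 was lowest in *Nppa* and highest in *Corin*. This order was noticed after the values were seen and was not tested, and values of 1 library share its depth and scaling.

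A178D replicate 4 also stood apart from the other hearts by exon length. Over the 1726 tested genes with under 2 kb of exon, its median deviation from the mean of the 7 hearts was 0.18 in log2 CPM, and over the 2514 genes with 8 kb or more it was -0.17. WT replicate 1 deviated the other way, by -0.12 and 0.081, and in the other hearts these medians lay between -0.026 and 0.044. The exons of *Nppa* and *Nppb* come to 865 and 781 bases, those of *Corin* to 5400. With offsets that remove the trends with length and GC content, *Nppa* had a log2 fold change of 1.13 and *Corin* of -0.49, with adjusted p of 0.0191 and 0.00476 in edgeR's test. Without A178D replicate 4 both were called as well, at 1.154 and -0.46 (adjusted p of 0.0246 and 0.0122 in edgeR's test). The part of the length trend in the order of the hearts was not tested.

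**Figure D2:**
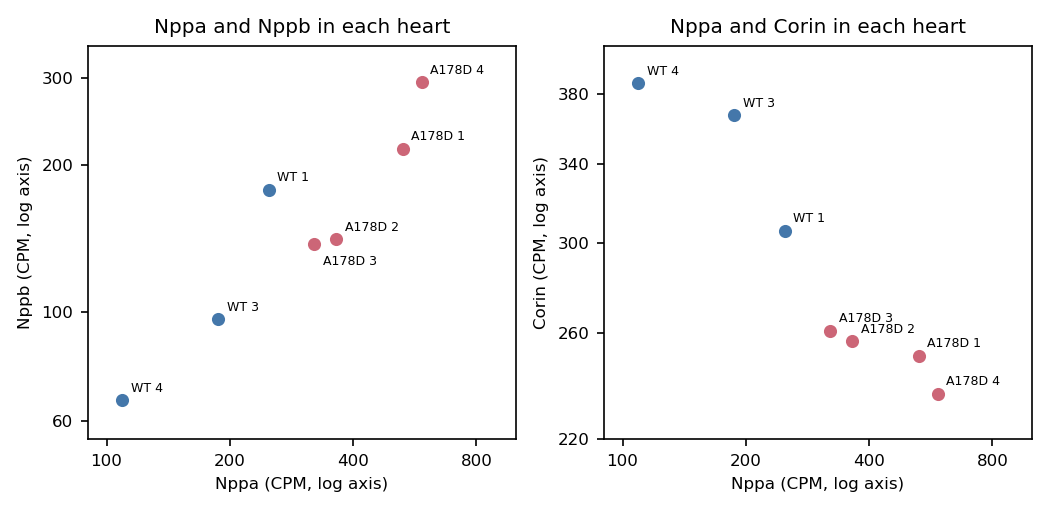
Level of *Nppa* (horizontal log axis, CPM) against *Nppb* (left) and *Corin* (right, both on vertical log axes in CPM) in the 7 hearts. Each point is 1 heart, WT in blue and A178D in red, with its replicate number. From WT replicate 4 to A178D replicate 4, *Nppa* goes from 109 to 588 CPM and *Corin* from 386 to 236 CPM.

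*Furin* (ENSMUSG00000030530; chromosome 7, 80388585 to 80405436, minus strand) encodes the convertase that cuts the precursors of brain and C-type natriuretic peptide, among many other substrates. Its level was 113, 119 and 104 CPM in WT replicates 1, 3 and 4, and 104, 109, 105 and 109.8 CPM in A178D replicates 1 to 4. The A178D hearts lay within the range of the WT hearts. In log2 terms the difference was -0.066 (standard error 0.069), with a 95% interval from -0.21 to 0.081 and an adjusted p of 0.671 in the edgeR quasi-likelihood test (Benjamini-Hochberg). With single hearts left out, this estimate ranged from -0.12 (without WT replicate 4) to -0.019 (without WT replicate 3).

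*Npr1* (ENSMUSG00000027931; chromosome 3, 90450591 to 90465866, minus strand) encodes the guanylyl cyclase receptor of atrial and brain natriuretic peptide. Its level was 36.0, 38.0 and 37.4 CPM in WT replicates 1, 3 and 4, and 26.7, 31.9, 35.4 and 37.3 CPM in A178D replicates 1 to 4. WT hearts lay within a narrow band, which A178D replicate 4 reached and A178D replicate 1 did not approach. The log2 fold change was -0.18 (standard error 0.10, 95% interval from -0.40 to 0.044), with an adjusted p of 0.419 in the edgeR quasi-likelihood test (Benjamini-Hochberg). With single hearts left out, this estimate ranged from -0.24 (without A178D replicate 4) to -0.090 (without A178D replicate 1).

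*Npr2* (ENSMUSG00000028469; chromosome 4, 43631935 to 43651244, plus strand) encodes the cyclase receptor of C-type natriuretic peptide. Its level was 90.4, 91.1 and 89.2 CPM in WT replicates 1, 3 and 4, and 84.3, 88.2, 86.9 and 87.2 CPM in A178D replicates 1 to 4. The hearts did not overlap, yet the gap between the nearest of them was small. In log2 terms the difference was -0.059 (standard error 0.063, 95% interval from -0.19 to 0.076), with an adjusted p of 0.686 in the edgeR quasi-likelihood test (Benjamini-Hochberg).

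*Npr3* (ENSMUSG00000022206; chromosome 15, 11839896 to 11907287, minus strand) encodes the clearance receptor, which takes up natriuretic peptides and lacks a cyclase domain. Its level was 19.6, 20.7 and 19.4 CPM in WT replicates 1, 3 and 4, and 34.8, 26.1, 29.8 and 19.2 CPM in A178D replicates 1 to 4. In A178D replicates 1, 2 and 3 it stood above all WT hearts, whereas A178D replicate 4, the heart with the highest *Nppa*, was the lowest of the 7. The log2 fold change was 0.47 (standard error 0.15, 95% interval from 0.15 to 0.79), and with an adjusted p of 0.131 in the edgeR quasi-likelihood test (Benjamini-Hochberg) it was not called. Without A178D replicate 4 the log2 fold change was 0.60 and the adjusted p of edgeR's test 0.0101, in a range from 0.0101 to 0.321 over the 7 fits without 1 heart. DESeq2's Wald test also called *Npr3*, at a Benjamini-Hochberg adjusted p of 0.0434, within 0.0416 to 0.152 over the alternatives that kept all hearts. The exons of *Npr3* come to 9389 bases, and genes of 8 kb or more had a median deviation of -0.17 in A178D replicate 4. With offsets for length and GC content the log2 fold change was 0.52 and *Npr3* was called (adjusted p 0.0416 in edgeR's test). The part of the length trend in the value of A178D replicate 4 was not tested.

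The ratio of the signalling receptor to the clearance receptor, *Npr1* to *Npr3* in CPM per kb, was 3.61, 3.60 and 3.79 in WT replicates 1, 3 and 4, and 1.503, 2.40, 2.33 and 3.82 in A178D replicates 1 to 4. The WT hearts lay close together in this ratio. A178D replicates 1, 2 and 3 lay below them and A178D replicate 4 at their level. The exons of *Npr1* come to 4783 bases and those of *Npr3* to 9389, and the ratio was not corrected for the length trend of the libraries. No test was made of the ratio.

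Besides corin and furin, 9 genes of other proprotein convertases, of peptidases that break natriuretic peptides down and of a competitor for the clearance receptor were listed, of which 6 could be tested. EdgeR called 0 of them, 1 had an unadjusted p under 0.05, about the 16.7% of all tested genes, and DESeq2 and limma-voom each called 0. Their median log2 fold change was -0.085, against 0.0023 over all tested genes, and it ranged from -0.15 without WT replicate 1 to 0.017 without WT replicate 4. *Ide*, the insulin-degrading enzyme, which cleaves atrial natriuretic peptide, was at 121, 120.3 and 133 CPM in WT hearts and at 112, 111, 103 and 93.9 CPM in A178D hearts. It did not overlap between the genotypes, with a log2 fold change of -0.25 (standard error 0.077) and an adjusted p of 0.117 in the edgeR quasi-likelihood test (Benjamini-Hochberg). *Pcsk6*, which encodes the convertase known to activate corin, had a log2 fold change of -0.17 with overlapping hearts. This estimate ranged from -0.24 without WT replicate 1 to -0.052 without WT replicate 3. *Mep1a* had no count in any heart.

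Of 7 genes of secretory granules, 4 could be tested and 0 were called by edgeR, DESeq2 or limma-voom, and 0 had an unadjusted p under 0.05. *Pam*, the amidating enzyme that is abundant in atrial granule membranes, was at 809, 809 and 768 CPM in WT and 846, 801, 892 and 830.3 CPM in A178D hearts. *Cpe*, a carboxypeptidase of granules, was between 260.3 and 282 CPM in all hearts. The log2 fold changes were 0.083 for *Pam* and -0.046 for *Cpe*. *Chgb* (chromogranin B) and *Scg3* (secretogranin) were at most 0.679 and 0.926 CPM, and their log2 fold changes of 0.43 and 1.12 rest on few counts. By limma-voom that of *Scg3* was -0.17. The median of the 4 was 0.26, but -0.0073 by limma-voom, 0.019 with at least 10 counts in every library, and from 0.081 (without A178D replicate 1) to 0.20 (without WT replicate 1) with single hearts left out.

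Nitric oxide raises cyclic GMP through a second, soluble cyclase, whose subunits were listed with the other cyclases and the NO synthases. Of these 9 genes 5 could be tested, with a median log2 fold change of -0.24. EdgeR and limma-voom called 0 of them, 3 had an unadjusted p under 0.05, and DESeq2 called 1. *Gucy1a1* was at 38.1, 32.9 and 30.2 CPM in WT hearts and at 23.9, 26.0, 29.9 and 21.4 CPM in A178D hearts. *Gucy1b1*, its partner subunit, was at 31.1, 32.0 and 32.8 CPM in WT hearts and at 26.5, 27.1, 28.5 and 25.9 CPM in A178D hearts. In *Gucy1a1*, *Gucy1a2* and *Gucy1b1* all A178D hearts lay below all WT hearts, with log2 fold changes of -0.42, -0.37 and -0.24. Their adjusted p were 0.0752, 0.175 and 0.123 in the edgeR quasi-likelihood test (Benjamini-Hochberg). Without A178D replicate 3, edgeR called *Gucy1a1* at an adjusted p of 0.0456, in a range up to 0.203 over the fits without 1 heart. With all hearts *Gucy1a1* was called by DESeq2 (adjusted p 0.0194), and by edgeR without a filter on low counts (0.0458) and with offsets for length and GC content (0.0488), in a range up to 0.0774 over the 9 alternatives with all hearts. *Nos3*, the endothelial NO synthase, had a log2 fold change of -0.14.

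Downstream of cyclic GMP, 8 of 9 effector genes could be tested, and 7 of the 8 log2 fold changes were below 0, with a median of -0.20. This median ranged from -0.26 without A178D replicate 3 to -0.11 without A178D replicate 4. EdgeR and limma-voom called 0, 1 had an unadjusted p under 0.05, below the 16.7% of all tested genes, and DESeq2 called 1. *Mrvi1*, the kinase substrate through which cyclic GMP restrains calcium release in smooth muscle, was at 27.9, 23.1 and 21.8 CPM in WT hearts and at 15.8, 17.1, 20.9 and 17.8 CPM in A178D hearts. It did not overlap between genotypes (log2 fold change -0.44, adjusted p = 0.0632 in the edgeR quasi-likelihood test (Benjamini-Hochberg)), and without A178D replicate 3 it was called (adjusted p = 0.0456, in a range up to 0.178 over the 7 such fits). With all hearts *Mrvi1* was called by DESeq2 (adjusted p 0.0135), and by edgeR without a filter on low counts (0.0386) and with the offsets (0.0421), in a range up to 0.139 over the 9 alternatives with all hearts. *Pln*, encoding phospholamban of the sarcoplasmic reticulum, was by far the most abundant of the list at 7850 to 9501 CPM and had a log2 fold change of -0.031. *Vasp* stood at 0.020 and the sparse *Kcnma1* at -0.58, with overlapping hearts in both.

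All 12 genes for phosphodiesterases and cyclic nucleotide exporters could be tested. Their median log2 fold change was -0.14, but -0.080 without WT replicate 3, -0.088 without A178D replicate 4 and -0.075 with the offsets. EdgeR and limma-voom called 0 of them, while 2 had an unadjusted p under 0.05, the same share as over all tested genes, and DESeq2 called 2. *Pde5a*, the phosphodiesterase specific for cyclic GMP, was at 8.07, 8.09 and 8.84 CPM in WT hearts and at 5.23, 6.47, 7.07 and 4.69 CPM in A178D hearts. The exporter *Abcc5* was at 66.0, 62.3 and 63.9 CPM in WT and at 53.4, 54.0, 54.8 and 52.0 CPM in A178D hearts. In both genes all A178D hearts lay below all WT hearts, with log2 fold changes of -0.50 and -0.26 and adjusted p of 0.100 and 0.0625 in the edgeR quasi-likelihood test (Benjamini-Hochberg). DESeq2 called *Pde5a* (adjusted p 0.0454) and *Abcc5* (0.0125), in ranges up to 0.118 and 0.201 over the 9 alternatives with all hearts. *Pde2a*, the most abundant of the list and itself activated by cyclic GMP, had a log2 fold change of 0.045, and *Pde11a* of -0.56 with overlapping hearts. The estimate of *Pde11a* ranged from -0.84 without WT replicate 3 to -0.20 without WT replicate 1.

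**Figure D3:**
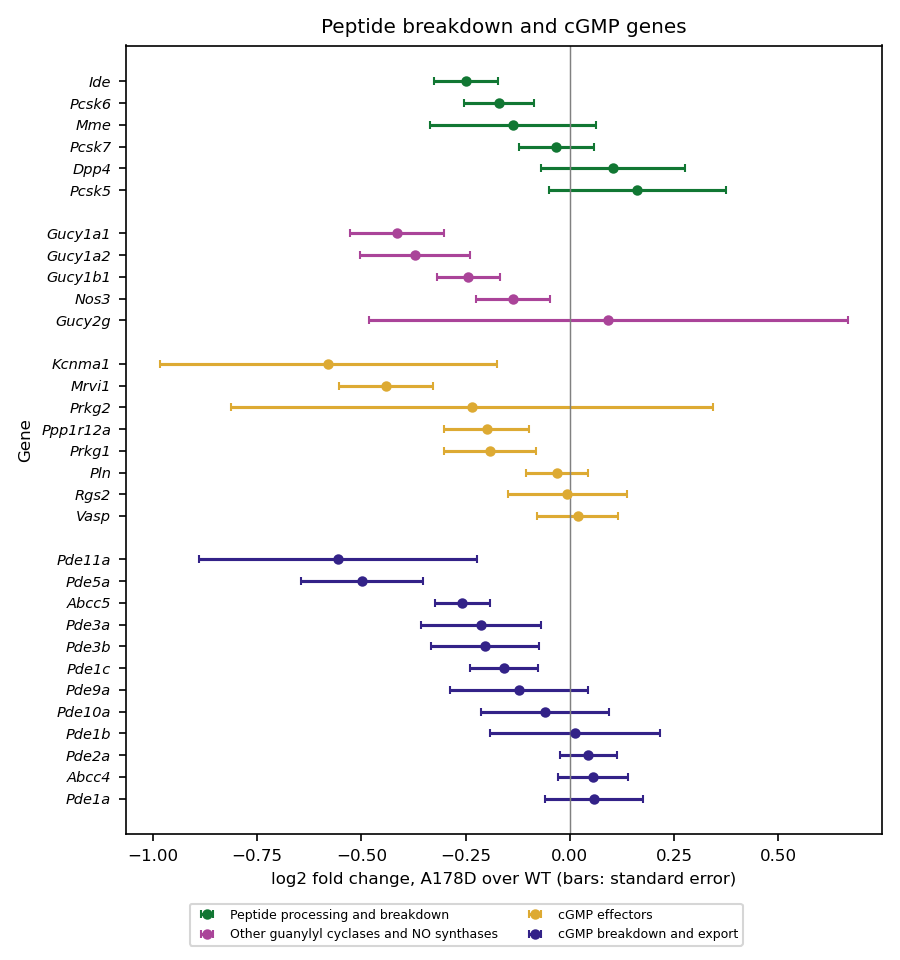
Log2 fold change, A178D over WT (horizontal axis), of the tested genes of peptide processing and breakdown (green), other guanylyl cyclases and NO synthases (purple), cyclic GMP effectors (yellow) and cyclic GMP breakdown and export (blue). Points are estimates of edgeR's model and bars their standard errors. EdgeR called no gene in the plot, while DESeq2 called *Gucy1a1*, *Mrvi1*, *Pde5a* and *Abcc5*, and the subunit genes *Gucy1a1*, *Gucy1a2* and *Gucy1b1* lie below 0.

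Smooth muscle cells and pericytes express the soluble cyclase, *Mrvi1* and *Pde5a* as well, and 9 markers of these cells were listed. EdgeR called 5 of them lower, as did limma-voom, while DESeq2 called 7, and 7 had an unadjusted p under 0.05. The median over the 9 was -0.59. The other 4, among them *Abcc9* (-0.15), were not called by edgeR, with log2 fold changes from -0.33 to -0.094 and overlapping hearts in 3. Summed over the list, the level was 1338, 1366 and 1342 CPM in WT and 1039.6, 1131, 1201 and 955 CPM in A178D hearts, and *Abcc9* was the most abundant gene. The genes called by edgeR were *Acta2*, *Myh11*, *Tagln*, *Cnn1* and *Lmod1*, with log2 fold changes of -0.59, -0.67, -0.62, -0.82 and -0.70. *Acta2* and *Tagln* were called in all 7 fits without 1 heart, whereas *Myh11* was lost without WT replicate 3 or 4 (adjusted p from 0.0501 to 0.0547 in edgeR's test). *Cnn1* was called only in the fit without A178D replicate 4 and *Lmod1* only in that without A178D replicate 2, with adjusted p up to 0.109 and 0.142 without any other heart. *Cnn1* was not called with the replicate number as a block (adjusted p 0.0617 in edgeR's test, the highest over the 9 alternatives with all hearts). The pericyte markers *Rgs5* and *Pdgfrb*, named after their values were seen, both had a log2 fold change of -0.33, with adjusted p of 0.0653 and 0.0863 in the edgeR quasi-likelihood test (Benjamini-Hochberg). DESeq2 called both (0.0127 and 0.0260), as did edgeR with the offsets (0.0136 and 0.0340), and *Rgs5* was called without a filter on low counts (0.0400), in ranges up to 0.0998 and 0.0939 over the 9 alternatives with all hearts. Without A178D replicate 4 the adjusted p of *Rgs5* was 0.0495 and without WT replicate 4 that of *Pdgfrb* 0.0493, in ranges up to 0.226 and 0.325 over the 7 such fits. Fewer cells of a type and less RNA per cell cannot be told apart in whole ventricles. The part of these cells in the values of the cyclic GMP genes was not tested.

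Transcription of *Nppa* and *Nppb* depends on cardiac factors, of which 24 of 25 listed genes could be tested, with a median log2 fold change of -0.092 (-0.043 with the offsets). EdgeR called 2 of them, both lower with the variant, as did limma-voom, while DESeq2 called 3, and 7 of the 24 had an unadjusted p under 0.05. *Klf13*, which encodes a Krüppel-like activator of *Nppa* and *Nppb*, was at 65.9, 71.6 and 72.8 CPM in WT and at 48.6, 49.0, 54.0 and 50.3 CPM in A178D hearts. *Gata6* was at 65.0, 65.1 and 70.4 CPM in WT and at 45.1, 54.5, 51.6 and 51.3 CPM in A178D hearts. The log2 fold changes were -0.47 (standard error 0.072, adjusted p = 0.00579) for *Klf13* and -0.40 (standard error 0.078, adjusted p = 0.0177) for *Gata6*, in the edgeR quasi-likelihood test (Benjamini-Hochberg). *Klf13* was called in all 7 fits without 1 heart, whereas *Gata6* was lost without WT replicate 3, WT replicate 4 or A178D replicate 1, at adjusted p from 0.0595 to 0.0975. *Hey2*, which encodes a repressor, was lower in all A178D hearts than in any WT heart, with a log2 fold change of -0.55 and an adjusted p of 0.05004 in edgeR's test. *Hey2* was called by DESeq2 (adjusted p 0.0126), and by edgeR without a filter on low counts (0.0386) and with halved counts (0.0486), in a range up to 0.126 over the 9 alternatives with all hearts. *Gata4* and *Srf*, the most abundant per length, had log2 fold changes of 0.16 and 0.068 with overlapping hearts.

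*Nppa* is usually described together with fetal and stretch-associated genes of the myocyte. All 10 of these could be tested, and each of the 10 estimates lay above 0. Their median log2 fold change was 0.65, and 7 had an unadjusted p under 0.05. EdgeR called 2, *Acta1* (skeletal alpha-actin, log2 fold change 2.64) and *Rcan1* (a calcineurin target and modulator, 0.63). DESeq2 called 2, *Acta1* and *Csrp3*, and limma-voom 4. EdgeR called 5 without WT replicate 1 and 1 without WT replicate 3, WT replicate 4 or A178D replicate 1, 2 or 4. *Acta1* was at 183, 72.0 and 69.3 CPM in WT and at 811, 495, 706 and 672 CPM in A178D hearts, which did not overlap, and it was called in all 7 fits without 1 heart. *Rcan1* was at 87.5, 65.1 and 59.7 CPM in WT and at 137, 106, 85.7 and 111 CPM in A178D hearts. A178D replicate 3 and WT replicate 1 overlapped in it, and its adjusted p of 0.0394 in edgeR's test rose to between 0.0545 and 0.194 without WT replicate 3, WT replicate 4 or A178D replicate 1, 2 or 4. By DESeq2 the adjusted p of *Rcan1* was 0.0630, and it was not called, in a range from 0.00303 to 0.0630 over the 9 alternatives with all hearts. *Ankrd1*, the stretch-responsive ankyrin repeat protein, was at 1414, 936 and 812 CPM in WT and at 2081, 1527, 1346 and 1739.6 CPM in A178D hearts. Like *Nppb*, it was high in WT replicate 1, and its adjusted p of 0.0591 in edgeR's test became 0.00201 without that heart, the lowest of the 7 such fits, which ranged up to 0.241. *Ankrd1* was also called by limma-voom (adjusted p 0.0473), by edgeR without a filter on low counts (0.0194) and with the replicate number as a block (0.00115), in a range up to 0.131 over the same alternatives. *Csrp3* (muscle LIM protein) and the sparse *Ankrd2* had log2 fold changes of 0.27 and 1.08 and were not called by edgeR. For *Csrp3* the adjusted p was 0.123 in edgeR's test and 0.0480 by DESeq2, in a range up to 0.1397 over the same alternatives.

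Atrial and conduction myocytes express *Nppa* strongly. Of 9 atrial markers 4 could be tested, with a median log2 fold change of -0.14 and 0 calls by edgeR, 2 at an unadjusted p under 0.05 and 1 call each by DESeq2 and limma-voom. Their summed level was 77.6, 81.0 and 81.1 CPM in WT and 62.8, 69.8, 69.5 and 61.3 CPM in A178D hearts. Without *Kcnj3* it was 32.0, 30.2 and 29.2 CPM in WT and 29.96, 31.0, 28.4 and 35.5 CPM in A178D hearts, which overlapped. Their median log2 fold change was -0.034 without A178D replicate 1, -0.41 by DESeq2 and -0.41 without a filter on low counts. *Kcnj3*, the most abundant of them, lay lower in all A178D hearts (log2 fold change -0.51, adjusted p = 0.0529 in the edgeR quasi-likelihood test (Benjamini-Hochberg)) and was called without WT replicate 1, A178D replicate 3 or A178D replicate 4, in a range from 0.0373 to 0.202. With all hearts *Kcnj3* was called by DESeq2 (adjusted p 0.00507), by limma-voom (0.0473), and by edgeR without a filter on low counts (0.0227), with the block (0.0179) and with the offsets (0.0233), in a range up to 0.0548 over the 9 alternatives with all hearts. *Myl4*, the atrial light chain, was at 1.90, 1.89 and 1.85 CPM in WT and at 4.02, 2.14, 2.60 and 3.06 CPM in A178D hearts, with a log2 fold change of 0.65 and an adjusted p of 0.171 in the same test. *Stard10* had a log2 fold change of 0.027.

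Of 8 conduction system markers, all tested, 4 had a log2 fold change above 0 and 4 below, and 3 had an unadjusted p under 0.05. The estimates ran from -0.48 (*Kcne1*, a potassium channel subunit, named after its values were seen) to 1.36. EdgeR, DESeq2 and limma-voom each called 1 gene, *Irx3*, a factor of the ventricular conduction system, which was also the most abundant of them. *Irx3* was at 35.3, 35.9 and 38.6 CPM in WT and at 52.5, 61.1, 59.9 and 69.1 CPM in A178D hearts, with a log2 fold change of 0.73, and was called in all 7 fits without 1 heart. The summed level of the list was 87.9, 99.5 and 100.2 CPM in WT and 117, 140.2, 119 and 124 CPM in A178D hearts. Without *Irx3* it was 52.6, 63.6 and 61.6 CPM in WT and 64.1, 79.0, 59.3 and 54.9 CPM in A178D hearts, which overlapped. The median log2 fold change of the list was 0.018, between -0.056 and 0.080 without single hearts. *Cntn2*, which marks Purkinje fibres, was at 1.83, 5.14 and 3.72 CPM in WT and at 10.8, 14.3, 6.14 and 5.10 CPM in A178D hearts. Its log2 fold change was 1.36 with an adjusted p of 0.0655 in the edgeR quasi-likelihood test (Benjamini-Hochberg), and without A178D replicate 4 the adjusted p was 0.0281, in a range up to 0.192. *Cntn2* was also called without a filter on low counts (0.0219) and with the offsets (0.0439), in a range up to 0.122 over the 9 alternatives with all hearts. *Cacna1g* stood at 0.037. The part of conduction and atrial cells in the level of *Nppa* was not tested.

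*Npr1* and *Npr3* are known from endothelial and endocardial cells. None of the 5 endocardial, 8 endothelial or 8 fibroblast markers was called by edgeR or limma-voom, while DESeq2 called 1 of each list and 4, 1 and 3 had an unadjusted p under 0.05. The endocardial sum, led by *Cgnl1*, was 102, 103 and 99.4 CPM in WT and 104, 102, 99.3 and 84.1 CPM in A178D hearts, and the median log2 fold change was 0.38, or 0.23 without A178D replicate 1. *Nfatc1* (-0.27) lay lower and *Tmem108* (0.67) higher in all A178D hearts, while *Cdh11* (0.41) and *Cgnl1* (-0.079) overlapped. The endothelial sum, led by *Kdr*, was 1168, 1093 and 1020.4 CPM in WT and 1082, 1082, 1123 and 1099 CPM in A178D hearts, with a median of 0.055 that was -0.0025 without WT replicate 4 and 0.0077 without A178D replicate 4. Log2 fold changes were -0.075 for *Pecam1*, -0.11 for *Cdh5*, 0.14 for *Emcn* and 0.39 for *Cldn5*, of which only *Cldn5* did not overlap. The fibroblast sum, led by *Dcn*, was 1007, 1085 and 1033 CPM in WT and 1203, 1091, 1063 and 1081 CPM in A178D hearts, with a median of 0.093 (from 0.034 without WT replicate 1 to 0.16 without WT replicate 3). Without *Dcn* the sum was 487, 490 and 410 CPM in WT against 557, 529, 508 and 523 CPM in A178D hearts, and these sums did not overlap. *Dcn* itself overlapped. *Dpt*, *Col1a1* and *Col1a2* had log2 fold changes of 0.14, 0.45 and 0.26. Of the 8 fibroblast estimates 6 lay above 0 and 2 below, the lowest at -0.14. *Cldn5* and *Col1a1* were called without WT replicate 1, at adjusted p of 0.0463 and 0.0196 in edgeR's test, in ranges up to 0.26 and 0.18 over such fits. DESeq2 called *Tmem108* (adjusted p 0.0452), *Cldn5* (0.0224) and *Col1a1* (0.0120), with ranges up to 0.241, 0.184 and 0.0818 over the 9 alternatives with all hearts. EdgeR called *Col1a1* without a filter on low counts (0.0416) and with the offsets (0.0239). The part of these cells in the receptor levels was not tested.

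Genes whose pattern over the 7 hearts was most like that of a member were found as those with the smallest root mean square distance between centred log2 CPM values, among 12205 genes averaging at least 50 counts. Since likeness was taken over the same hearts, genotype difference included, the direction and the calls of these genes follow from how they were chosen. For *Nppa* these were *Morn4*, *Ccdc63*, *Spon2*, *Colq* and *Lbx2*, at distances of 0.23 to 0.28, against a spread of *Nppa* itself of 0.79. EdgeR called *Morn4*, *Ccdc63* and *Colq*, all higher in A178D hearts, with log2 fold changes of 1.12, 1.52 and 1.06, and *Ccdc63* was called in all 7 fits without 1 heart. *Morn4* was lost without WT replicate 3 or 4 or A178D replicate 1 or 3 (adjusted p from 0.0580 to 0.127 in edgeR's test), and *Colq* without WT replicate 3 or 4 or A178D replicate 1 or 2 (0.0512 to 0.165). *Spon2* was called without WT replicate 1 or A178D replicate 3 (0.0234 to 0.0392, in a range up to 0.213), and with all hearts by DESeq2 (0.00529), without a filter (0.0272) and with the block (0.0357), in a range up to 0.0861 over the 9 alternatives with all hearts. DESeq2 also called *Lbx2* (0.0496, in a range up to 0.134). For *Nppb* (spread 0.66) they were *Camsap3*, *Cpxm2*, *Ccnb2*, *Btc* and *Sypl2*, at distances of 0.26 to 0.29. EdgeR, DESeq2 and limma-voom called 0 of these 5, and 3 had an unadjusted p under 0.05. *Cpxm2*, which encodes a carboxypeptidase-like protein, shared the high value of WT replicate 1, with 51.2, 29.97 and 31.4 CPM in WT and 63.1, 48.6, 56.5 and 83.1 CPM in A178D hearts. Its adjusted p in edgeR's test was 0.0611, and without WT replicate 1 or A178D replicate 2 it was called (0.00364 to 0.0389, in a range up to 0.255). *Cpxm2* was also called with the block (0.00483), without a filter on low counts (0.0200) and with the offsets (0.0488), in a range up to 0.137 over the 9 alternatives with all hearts.

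For *Corin* (spread 0.26) the nearest genes were *Pik3r1*, *Tppp*, *Mylk4* and *Zfp612*, at distances of 0.041 to 0.066. EdgeR called these 4 genes lower, with log2 fold changes of -0.50, -0.54, -0.39 and -0.49. *Pik3r1*, the regulatory subunit of phosphoinositide kinase, was at 188, 205 and 233 CPM in WT and at 147, 151, 156 and 136 CPM in A178D hearts, and was called in all 7 fits without 1 heart. *Mylk4* encodes a myosin light chain kinase, and its level was 433, 502 and 573 CPM in WT and 373, 409, 401 and 352 CPM in A178D hearts. *Tppp* was lost without WT replicate 3 or 4 (adjusted p from 0.0547 to 0.0642 in edgeR's test), *Zfp612* without WT replicate 3 or 4 or A178D replicate 1 or 2 (0.0590 to 0.153), and *Mylk4* without any heart but WT replicate 1 (0.0558 to 0.179). Without WT replicate 4, 0 of the 5 nearest genes of *Nppa* were still among the nearest, and without A178D replicate 4, 0 of the 5 of *Corin*. Of the 5 of *Nppb*, 1 was kept without WT replicate 4 or A178D replicate 4, and 3 were kept without any other single heart.

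Within 100 kb of *Nppa* or *Nppb* the annotation (GENCODE M21) lists 14 genes, these included, of which 9 were tested. Of the 7 others 0 were called by edgeR, 1 had an unadjusted p under 0.05, and DESeq2 and limma-voom called 0. *Clcn6*, the chloride transporter gene that follows *Nppa* on the opposite strand, was at 9.85 ± 1.33 CPM (SD, n = 3) in WT hearts, against 9.01 ± 0.935 CPM (SD, n = 4) with the variant, with a log2 fold change of -0.13. *Mfn2* (-0.14) lay lower and *Agtrap* (0.12) higher in all A178D hearts, with adjusted p of 0.269 and 0.381 in the edgeR quasi-likelihood test (Benjamini-Hochberg), and *Plod1*, *2510039O18Rik* and *Chchd2-ps* overlapped. These genes were named for their position. Annotated genes on the opposite strand overlap *Nppa*, *Corin*, *Furin*, *Npr1*, *Npr2* and *Npr3*. They have no entry in the count table and were not analysed here. Whether the counting used the strand is not given in the sources used here. Reads of a gene and its partner on the opposite strand may thus not have been told apart.

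Because *Nppa* and *Nppb* share their order of hearts, the sequence before their starts was examined in RefSeq (GRCm38.p6), where all 8 members have an entry. The 250 bases before the start were searched on both strands, and 32851 promoters served for comparison. GATA factors are known to bind TGATAA and AGATAA, and 16.6% of all promoters held either of these. NK-type homeodomain factors are known to bind AAGTG, which 40.7% held. The T-box letters searched were TCACACC, found in 3.33%. For TEAD factors the MCAT element CATTCC was searched, found in 12.6%. The TATA letters were TATAAA, found in 12.4%, and the CArG box of serum response factor was found in 1.47% and before no member. The 250 bases before the start of *Nppa* (plus strand, chr4:148000472-148000721) are shown since *Nppa* is the called peptide gene, with matches in capitals, in this order the T-box, NK, GATA, NK and TATA letters.
Nppa: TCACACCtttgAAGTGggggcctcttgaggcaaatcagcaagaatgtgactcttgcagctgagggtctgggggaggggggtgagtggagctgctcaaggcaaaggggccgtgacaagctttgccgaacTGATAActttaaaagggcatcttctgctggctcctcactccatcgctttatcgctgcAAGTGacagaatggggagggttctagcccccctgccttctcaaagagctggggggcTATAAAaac

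*Nppb* had both GATA forms close together, and a stretch of 29 bases around them (plus strand, chr4:147985799-147985827) is shown with these in capitals, 95 to 79 bases before the RefSeq start. That start (147985900) lies 112 bases downstream of the annotated start given above, so that the stretch lies inside the gene as annotated in GENCODE.
Nppb: tgcagcTGATAAatcagAGATAAccccac

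*Nppb* also held a match to CATTCC on the opposite strand, 105 to 100 bases before the start, and to TATAAA. No match of *Nppa* or *Nppb* overlapped another. Among the other members, matches lay before *Furin* (AAGTG and TATAAA) and *Nppc* (TATAAA). A match is a run of letters in the reference sequence, and binding was not measured in these hearts.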

How the data were processed

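Poly(A) RNA of 3 WT and 4 A178D left ventricles was sequenced, each mouse giving 1 library. The values used are raw counts of each gene, as deposited. The submitters' processing notes name bcl2fastq 2.18.0.12, HISAT2 2.1.0, SAMtools 1.6, DESeq2 1.26.0 and the build GRCm38. The counting program and the annotation release are not given in the sources used here. A table of counts divided by size factors was not used. Low counts were mostly even (17.6 to 20.3% odd among counts of 1 to 20, and 47.9 to 50.2% above 1000), so that both ends of a fragment appear to have been counted, and intervals and floors cover counting error only.

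Identifiers were matched to GENCODE M21 on GRCm38 (20957 of 21257 entries). Entries repeating all counts of another were reduced to 1 (442 entries in 219 sets of at least 30 counts). Genes reaching 10 counts in 3 or more libraries were compared with edgeR 4.0.16 (TMM, glmQLFit, glmQLFTest) in R 4.3.3. Replicates are separate mice, and no batch is labelled. A gene under the filter was compared by an exact permutation test. Alternatives were DESeq2 1.42.0, limma-voom (limma 3.58.1), DESeq2's size factors, other filters on low counts, the replicate number as a block, the table as deposited, halved counts, offsets for exon length and GC content (mgcv 1.9.3), a stricter threshold, and leaving out each heart. The pipeline was tested on simulated data. Tables and figures were made with Python 3.11.15, pandas 2.3.3, numpy 2.4.6 and matplotlib 3.10.9.

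Named were every member; of each list the called genes, the 2 with the highest level per length and the 2 with the largest log2 fold change in size; and the 5 genes nearest in pattern to *Nppa*, *Nppb* and any other called member. The members and lists were chosen with earlier results of these data known.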

Additional observations from a re-analysis of the deposited data

Results flagged for a closer look

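In 95 groups of 4 A178D values (levels of the named genes, summed lists and ratios), 4 held a heart far from the other 3, and chance gives about 1 in 20. *Nppc* was at 0.124 CPM in A178D replicate 4 and at 0 in the other A178D hearts, from 4 counts. *Nfatc1* was at 26.0 CPM in A178D replicate 2, against 22.9 to 23.4 CPM in the others. *Cgnl1* was at 48.6 CPM in A178D replicate 4, against 61.9 to 64.2 CPM. *Dcn* was at 646 CPM in A178D replicate 1, against 555 to 562 CPM.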

How the results depend on the processing

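The log2 fold changes of the 7 tested members kept their direction under all alternatives. *Nppa* and *Corin* were called in all 9 alternatives that kept every heart and the threshold, at log2 fold changes from 1.13 to 1.42 and from -0.49 to -0.48. Without single hearts the range was 1.05 to 1.6045 for *Nppa* (called in 4 of 7 fits), 0.52 to 1.28 for *Nppb* (1), -0.58 to -0.42 for *Corin* (5) and 0.34 to 0.60 for *Npr3* (1). *Furin*, *Npr1* and *Npr2* were called in none of these fits. *Npr3* was called by DESeq2 (0.47) and with offsets for length and GC content (0.52). The cause was not tested.

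Whether the replicate numbers pair the hearts is not given in the labels. For numbers 1, 3 and 4 the deviations of hearts of the same number correlated at 0.0031, -0.040 and -0.042. Hearts of different numbers correlated at -0.070 to 0.066. With so few hearts these values cannot decide whether hearts of the same number share a batch. With the replicate number as a block, 124 genes were higher and 147 lower, and the log2 fold change of *Nppb* was 0.96 with an adjusted p of 0.0373. In the same block fit *Cacna1g* turned to -0.048.

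DESeq2 called 289 genes higher and 377 lower, and at an adjusted p under 0.01 edgeR called 24 and 40. Without single hearts the number of genes called higher in A178D was 22 to 215, and that of genes called lower in A178D 31 to 238, with fewer hearts in each fit. Of the genes of the pathway lists 4 were called, against 9 by DESeq2, 9 without a filter, 7 with the offsets and 2 to 7 without single hearts. Of the cell type lists 7 were called, against 13, 11, 12 and 3 to 9.

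Some named genes changed sign, none of them called. *Scg3*, at 1.12 by edgeR from few counts, was at -0.17 by limma-voom, and *Btc*, at 0.25, ranged from -0.020 to 0.71 without single hearts. The others were near 0, *Dcn* (-0.00081 without a filter) and, with the offsets, *Vasp* (-0.037), *Stard10* (-0.039) and *Myl2* (-0.063). Without single hearts the ranges were -0.073 to 0.075 for *Vasp*, -0.078 to 0.041 for *Pln*, -0.039 to 0.15 for *Srf*, -0.033 to 0.075 for *Stard10*, -0.078 to 0.14 for *Cacna1g*, -0.022 to 0.061 for *Myl2*, -0.12 to 0.0042 for *Cgnl1* and -0.067 to 0.058 for *Dcn*. The cause was not tested.

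Of 18 called genes named besides the members, 7 were called in every fit without 1 heart. The medians of 9 of the 14 lists kept their sign under every alternative, and those of 5 did not (peptide processing, secretory granule, conduction, ventricular myocytes and endothelium). With 3 and 4 hearts the interval of *Npr1* spans 0, and depth limits *Nppc*.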
